A study of Brassica napus with 6 samples.

Results

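Microspores are the young male cells of a flower, and each would normally divide unequally and mature into a pollen grain. In Brassica napus (oilseed rape), a spell of heat given at the vacuolated stage, late in the unicellular phase, can divert them from pollen development so that some divide and form embryos in culture. Pollen development uses many genes that are active mainly in the male cells. The genes described here are 200 genes, of 104573 in the count table, that were well counted in vacuolated microspores and nearly gone in every heated culture.

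The 6 RNA sequencing libraries all came from cultivar Topas, from its line DH-4079, and fell into 2 groups of 3. The HS4d cultures were held at 32 °C throughout and collected at day 4, by which time proembryos had formed among the microspores. The VM group holds untreated vacuolated microspores collected at day 0. Microspores were isolated from flower buds and adjusted to 10000 cells per mL before any heat, and the series calls its replicates biological. No unheated culture of day 4 was analysed here, so the effects of heat, of days in culture and of developmental stage cannot be told apart. In a mixed culture, fewer cells of a type and less RNA per cell cannot be told apart either.

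The members were chosen by measured values. Abundance was expressed as CPM, a gene's count scaled to the total count of its library. A minimum of 10 CPM in every VM library was met by 19695 genes, of which 79 were among the 100 highest in all 3 VM libraries and were set aside. The remaining 19616 genes were ordered by the highest HS4d CPM as a share of the lowest VM CPM, and the first 200 were taken. The contrast of HS4d with VM therefore made the list, and its values below are a description of the list and not a test of it. Only readings in a library that took no part in the choice can be independent of it, and less so where a close replicate took part.

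All 200 members have identifiers that begin with GSBRNA2T. The files pair no identifier with a gene name, and 0 of the 104573 identifiers matched an entry of the RefSeq gene table at hand (Da-Ae assembly), so no function is given to any member. For the same reason the labelled cell types could not be checked against marker genes. Gene lengths were not at hand, so CPM of different genes reflects their length as well as their level. Brassica napus carries an A and a C genome, and the counts do not show how reads of near-identical gene copies were divided.

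The heated cultures were not alike. Total counts were 29144220, 39558658 and 31967898 in HS4d replicates 1, 2 and 3, and 31689399 to 33375742 in VM. Across 56949 genes, HS4d replicates 1 and 2 correlated at 0.965 on the log2 CPM scale, while HS4d replicate 3 correlated with them at 0.623 and 0.596 and with the VM libraries at 0.516 to 0.524. The VM libraries correlated with one another at 0.975 to 0.980. HS4d replicate 3 thus stood apart, and results that rest on it are given with and without it.

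The members held little of any heated library. They took 0.00683%, 0.0115% and 0.00304% of all counts in HS4d replicates 1, 2 and 3, against 1.36%, 1.42% and 1.52% in VM replicates 1, 2 and 3. The mean share was 0.00713% ± 0.00424 in HS4d and 1.43% ± 0.0834 in VM (SD, n = 3 each). Without HS4d replicate 3 the HS4d mean was 0.00917%. In counts, the whole list amounted to 1992, 4554 and 971 reads in the HS4d libraries, against 430762, 465598 and 508556 in the VM libraries.

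A typical member was a trace in the heated cultures and one of the better counted genes of the microspores. The median over members was 0.172, 0.253 and 0.0313 CPM in HS4d replicates 1, 2 and 3, against 36.1, 37.5 and 39.9 CPM in VM replicates 1, 2 and 3. The highest member stood at 4.43, 7.15 and 3.63 CPM in the HS4d libraries, and the lowest member at 10.8, 10.8 and 10.6 CPM in the VM libraries. The minimum of 10 CPM in VM was fixed by the choice. When the genes of a library were ordered by count, the median member was at position 55714, 53119 and 65172 in HS4d replicates 1, 2 and 3, against 6307, 6201 and 5699.5 in VM replicates 1, 2 and 3.

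**Figure D1:**
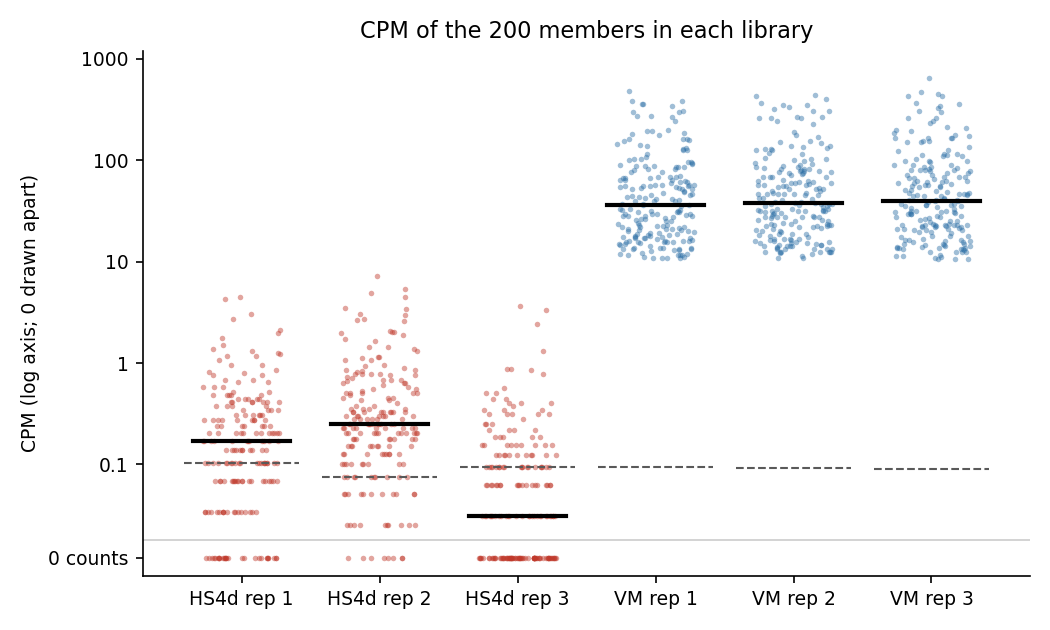
CPM of the 200 members in each library, with HS4d replicates left of VM replicates. Each point is a gene, black bars are medians, dashed lines mark the CPM of 3 counts in that library, and genes with 0 counts are drawn below the grey line. All HS4d points lie under all VM points, and 74 members have 0 counts in HS4d replicate 3.

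Most members still had some counts in the heated cultures at this depth. Whether such traces were expression of the member itself was not tested. Only 2 members had 0 counts over the whole HS4d group, and a further 20 had 1 to 3 counts, while 120 had at least 1 count in every HS4d library. The number of members with 0 counts was 28, 8 and 74 in HS4d replicates 1, 2 and 3, and 0 in each VM library, where the lowest count of any member was 341. A count of 0 allows up to 3 counts, which correspond to 0.103, 0.0758 and 0.0938 CPM in HS4d replicates 1, 2 and 3. Such limits cover counting error only, since no molecular identifiers are described that would tell molecules from PCR copies. Among the other 19416 genes ranked, 0 had 3 or fewer counts over the HS4d group. The choice fixed this result, so it is no contrast with the members. Given the minimum level in VM, any ranked gene with so few heated counts would have been placed ahead of the last member.

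**Figure D2:**
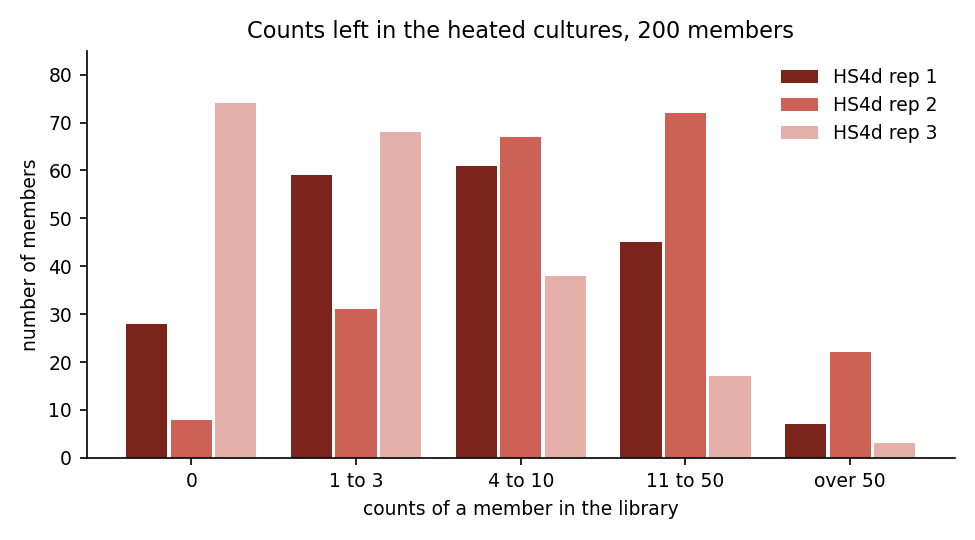
Number of members (vertical axis) by their count in each HS4d library (horizontal axis, 5 ranges). HS4d replicate 3 has the most members at 0 counts (74), and HS4d replicate 2 has the most with over 50 counts (22, against 7 and 3 in HS4d replicates 1 and 3).

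What was left was spread unevenly over the members. The 20 members with the most counts held 50.5% of the list's counts in HS4d and 41.5% of those in VM, and 16 genes were among the 20 in both groups. Across the 200 members, log2 CPM with 1 count added correlated with the VM mean at 0.681, 0.760 and 0.484 in HS4d replicates 1, 2 and 3. The choice capped the heated level relative to VM, and genes of 1 library share its depth, so these are descriptions only.

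The member that took the largest share of VM counts was GSBRNA2T00019536001, the sixth in the list's order. It had 0.137, 0.404 and 0.125 CPM in HS4d replicates 1, 2 and 3, from 4, 16 and 4 counts. It stood at 477, 367 and 648 CPM in VM replicates 1, 2 and 3, from 15101, 12065 and 21618 counts. The VM libraries differed among themselves for this gene, at 497 ± 141 CPM (SD, n = 3), but the groups were far apart. Its pooled counts relative to library totals were 2089.6-fold lower in HS4d, with an exact 95% counting interval (Clopper-Pearson) from 1404 to 3262, and the fitted log2 fold change was -9.94 ± 1.07 (SE). Most of its heated counts came from HS4d replicate 2, without which 8 counts gave a pooled fold of 3806 and a fitted log2 fold change of -10.99.

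GSBRNA2T00134271001 was 1 of the 2 members without a single count in HS4d, and of these it had the higher level in its lowest VM library. It had 0 counts in each HS4d library, against 11.96, 15.2 and 17.9 CPM in VM replicates 1, 2 and 3. The VM values came from 379, 500 and 597 counts. Relative to a limit of 3 counts over the HS4d group, its pooled level was at least 506-fold lower in HS4d. This gene was thus bounded by depth and not measured in the heated cultures.

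The other members are described by their range. With members at 3 or fewer counts over HS4d set at 3 counts, pooled counts relative to library totals were at least 55.7-fold lower in HS4d for every member, and the median was 212-fold. In all, 178 members were at least 100-fold lower, 38 at least 500-fold and 6 at least 1000-fold. These folds use library totals alone, and would be smaller when scaled by the trimmed mean of M values (TMM). On that scale the highest HS4d level relative to the lowest VM level had a median of 2.23% over members, against 0.907% by CPM. The largest such value of a member was 5.15%, against 2.06% by CPM.

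The first 50 members by place had median levels of 0.0686, 0.0758 and 0 CPM in HS4d replicates 1, 2 and 3, against 40.2, 41.98 and 44.9 CPM in VM replicates 1, 2 and 3. Those at places 151 to 200 had 0.292, 0.329 and 0.125 CPM in HS4d and 24.0, 27.1 and 26.4 CPM in VM. Those at places 101 to 150 had 0.240, 0.468 and 0.0938 CPM in HS4d and 49.1, 53.3 and 52.7 CPM in VM. VM values thus showed no steady order along the list. The member with the most counts over HS4d, at place 198, had 4.43, 7.15 and 0.501 CPM in HS4d replicates 1, 2 and 3, against 387, 427 and 361 CPM in VM replicates 1, 2 and 3.

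The end of the list was not a break in the data. The last member, at place 200, had 0.0686, 0.101 and 0.219 CPM in HS4d replicates 1, 2 and 3, against 11.6, 12.3 and 10.6 CPM in VM replicates 1, 2 and 3. The first gene outside, at place 201, had 2.54, 3.06 and 0.501 CPM in HS4d and 148, 150 and 155 CPM in VM. The highest HS4d level was 2.06% of the lowest VM level for the member and 2.07% for the gene outside. Of the 19616 genes ranked, 483 were under 5% by this measure and 854 under 10%, and the median of the other 19416 was 84.7%.

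In a fit over all genes, each member was called lower, as the choice made likely. Of 56949 genes tested with edgeR's quasi-likelihood test, 11.4% were lower in HS4d at a Benjamini-Hochberg adjusted p under 0.05, and the count among members was 200 of 200. All 200 had passed the filter on low counts, which their VM level alone would do. Every HS4d library lay below every VM library for 200 of 200 members, for 63.4% of the genes ranked by CPM, and for 28.3% of the genes tested on the scale of the trimmed mean of M values (TMM). The median fitted log2 fold change was -6.59 over the members, with a range from -12.05 to -4.72, and 0.07 over all genes tested. With the 22 members at 3 or fewer counts over HS4d set at 3 counts the median was also -6.59. That change could hardly move a median over 200, so it is no check of the fitted sizes. Fitted sizes of such members are not bounds.

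The count of calls depended on which library was left out. Without HS4d replicate 3, 200 members were called lower, with a median log2 fold change of -5.99 and 37.5% of all genes called lower. Leaving out VM replicate 2 gave the lowest count, 134 members with a median of -6.55, and 1.90% of all genes called lower. No scaling tried turned the direction of a member. Scaling by library size alone moved the median of all genes by -0.85 on the log2 scale and that of the members to -7.71, and all 200 members were still called lower.

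The heated cultures differed in how much of the list they kept. By CPM, the order was not that of the rest of the genes. HS4d replicate 3 alone was the lowest of its group for 139 of 200 members (69.5%) and for 17.0% of the other genes ranked. It alone was the highest for 15 members (7.5%) and for 79.4% of the other genes. On the TMM scale it was the lowest for 157 members and 40.2% of the other genes, and the highest for 7 members and 53.5% of the other genes. HS4d replicates 1 and 2 were the lowest for 28.8% and 31.0% of the other genes on that scale, fewer than HS4d replicate 3. The library that stood apart from the other heated cultures was thus the one with the least of the members, while for most other genes ranked it had the highest level of the 3. The choice used the highest HS4d value, so this contrast carries no test.

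HS4d replicate 2 held the most of what was left. It alone was the highest of its group for 144 members, and the summed CPM of the list was 1.68 times that of HS4d replicate 1. Over the other genes ranked the same ratio was 1.04. HS4d replicate 3 had 0.444 times the summed CPM of HS4d replicate 1 over the members and 1.94 times over the other genes. On the TMM scale these ratios were 0.206 and 0.899, so that of the other genes changed its direction and that of the members did not. The ratio of HS4d replicate 2 to HS4d replicate 1 was 1.63 over the members and 1.01 over the other genes on that scale. By summed TMM-scaled level the order of the cultures was thus the same for both, with far smaller differences over the other genes.

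Single members showed how far the heated cultures could differ. The member with the largest excess in HS4d replicate 3, at place 125, had 0.652, 1.44 and 3.63 CPM in HS4d replicates 1, 2 and 3, against 345, 349 and 428 CPM in VM replicates 1, 2 and 3. A member at place 124 had 0.961, 1.97 and 0 CPM in HS4d replicates 1, 2 and 3, against 193, 188 and 231 CPM in VM replicates 1, 2 and 3. The HS4d values of this second gene came from 28, 78 and 0 counts. These 2 members and the one at place 198 were picked after their values were seen.

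Spread between libraries of a group was also larger in HS4d. The median over members of the SD of log2 CPM, with a prior count of 1, was 1.09 in HS4d and 0.160 in VM. For the other genes ranked it was 0.929 in HS4d and 0.108 in VM. On the TMM scale the HS4d value was 1.59 for members and 0.595 for the other genes. Without HS4d replicate 3 the members' value in HS4d was 0.553. With a prior count of 3 and all HS4d libraries, the CPM spread in HS4d was 0.715 for members and 0.921 for the other genes. The order of members and other genes thus turned with the prior. Members had median counts of only 5, 10 and 1 in HS4d replicates 1, 2 and 3. In VM the highest library exceeded the lowest by a median factor of 1.23 for members and 1.15 for the other genes, and 1 member differed by a factor of 2 or more. VM replicate 1 was the lowest VM library for 99 members (49.5%) and for 44.8% of the other genes, and VM replicate 3 the highest for 107 members (53.5%) and for 37.3% of the other genes.

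The list was next read in a library that had not chosen it. When the same rule was applied without HS4d replicate 3, 170 of the 200 genes chosen were members, and 200 of 200 lay below every VM library in HS4d replicate 3. Among the other 19416 genes, 68.1% did so. The median level of the 200 in HS4d replicate 3 was 0.111% of the lowest VM level, against 78.5% for the others, and 192 were under 10%, where 6.89% of the others were. The highest of the 200 stood at 44.9%. Each of these figures comes from 1 library, so no test was made.

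The same held when the other heated cultures were left out in turn. For 200 genes chosen without HS4d replicate 1, all 200 lay below every VM library in it, as did 91.5% of the other genes, with medians of 0.447% and 28.9% of the lowest VM level. For 200 chosen without HS4d replicate 2, all 200 lay below, as did 91.6% of the others, with medians of 0.813% and 30.6%. HS4d replicates 1 and 2 correlated at 0.965, and each took part in the choice that was read in the other. Their results of 200 of 200 were therefore nearly fixed in advance. HS4d replicate 3 fell below both other heated libraries for 113 of the 200 genes chosen without it, and for 17.2% of the others. It stood above both for 44 of these 200 genes, and for 79.2% of the others. All these readings are relative to the same VM libraries that took part in the choice.

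**Figure D3:**
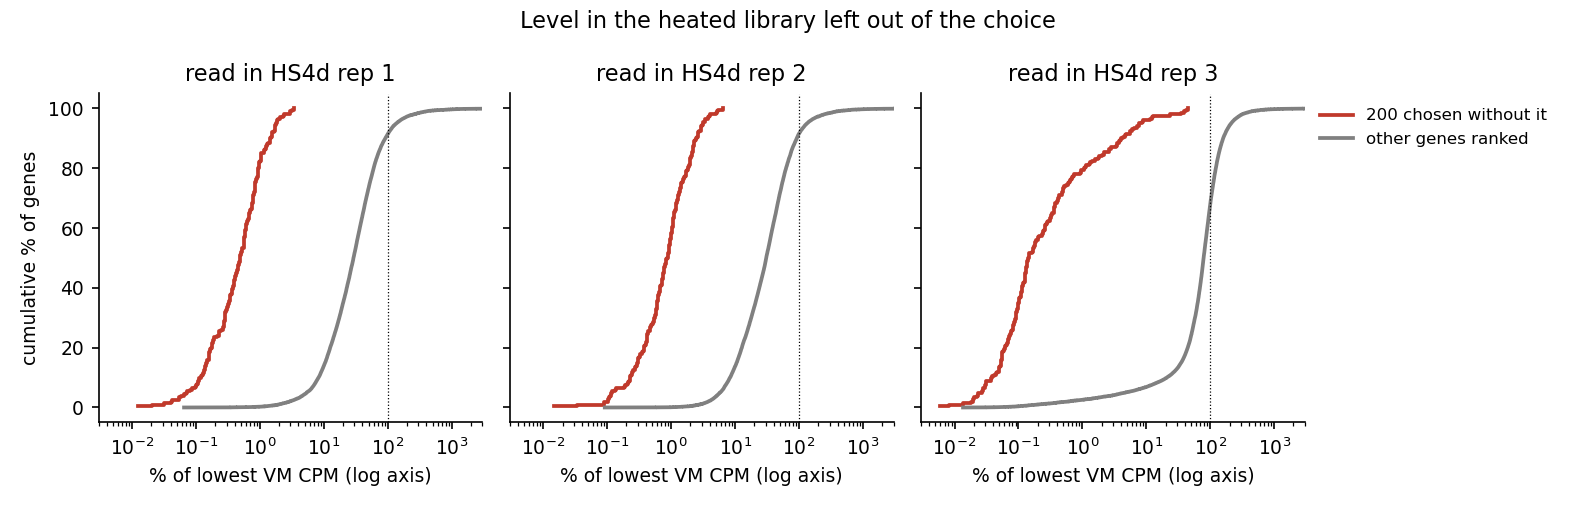
Cumulative percent of genes (vertical axis) by their level in the heated library left out of the choice, as percent of the lowest VM CPM on a log axis with 0.5 counts added; the dotted line marks 100%. The 200 genes chosen without the library (red) lie left of 100% in all 3 panels, and 68.1% of the other genes (grey) do so in HS4d replicate 3.

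The level in VM held likewise. Of the 200 genes chosen without VM replicate 1, 2 or 3, all 200 stood above every HS4d library in the one left out, where 66.6%, 68.2% and 67.9% of the other genes did. In that library 191, 197 and 189 of the 200 reached 10 CPM. The lowest stood at 5.49, 9.34 and 7.67 CPM. The HS4d libraries of this comparison had taken part in the choice, and VM libraries were close to one another. A result of 200 of 200 was therefore nearly fixed in advance.

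The heated cultures had different numbers of depleted genes. Of the genes ranked, 413, 265 and 856 were under 2% of their lowest VM level in HS4d replicates 1, 2 and 3, each library counted by itself. Under 10% there were 2948, 2893 and 1529 genes in HS4d replicates 1, 2 and 3. The order of the heated cultures by CPM thus differed between the 2 limits. The median over members was 0.897% in the higher of HS4d replicates 1 and 2 and 0.0742% in HS4d replicate 3, while over the other genes it was 32.3% and 78.5%. These readings share their VM libraries, and none was taken on the TMM scale. TMM factors were 0.550, 0.567 and 1.18 in HS4d replicates 1, 2 and 3, and 1.37 to 1.43 in VM. That scale would therefore raise HS4d replicates 1 and 2 more than HS4d replicate 3, and the counts by culture depend on the scaling.

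The highest heated value of a member usually came from HS4d replicate 1 or 2, which alone held it for 39 and 144 members. When HS4d replicate 3 alone stood for the heated group, the first 200 genes included 101 members. Of those 200, 199 lay below every VM library in HS4d replicate 1 and 198 in HS4d replicate 2, where 91.5% and 91.6% of the other genes did.

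**Figure D4:**
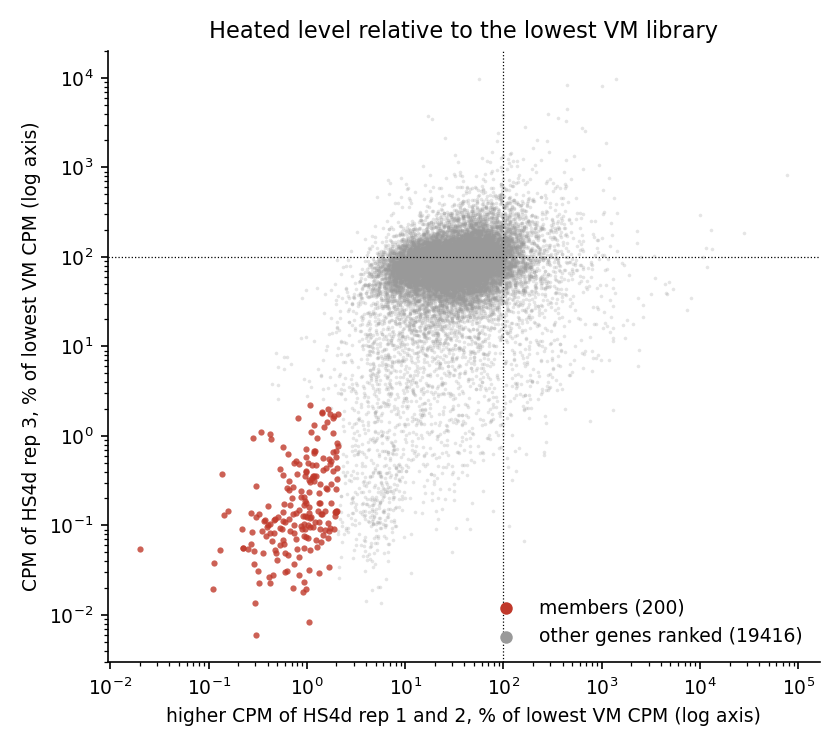
Level in HS4d replicate 3 (vertical axis) and the higher level of HS4d replicates 1 and 2 (horizontal axis), each as percent of the lowest VM CPM on log axes with 0.5 counts added, for the 200 members (red) and 19416 other genes ranked (grey); dotted lines mark 100%. Members fill the lower left corner, and other genes with equally low values in HS4d replicate 3 lie to their right. The choice itself fixed this layout.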

How the data were processed

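The authors deposited raw counts per gene for 6 libraries, and a table of log2-scale values from a variance-stabilising transformation (VST) with 76486 rows and 5 columns, without HS4d replicate 3 in the copy used here. HISAT2, DESeq2 and fastp 0.22.0 are named in the submitters' processing notes. Libraries did not keep strand, per the labels' protocols, so antisense partners cannot be told apart. The counting program, the genome build and the annotation were not given in the sources used here. Groups follow the sample titles.

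Genes kept by filterByExpr (minimum count 10; 56949 genes) were fitted with edgeR 4.0.16 in R 4.3.3, with TMM scaling, group as the only term, the quasi-likelihood test and Benjamini-Hochberg adjustment. The SE was the size of the log2 fold change over the root of the F statistic. Totals of 29144220 to 39558658 counts make 3 counts worth 0.0758 to 0.103 CPM. The code of fit and rule was run on simulated data with known answers. No simulated library stood apart as HS4d replicate 3 did, so this checked the code alone. Alternatives used DESeq2 1.42.0 and limma 3.58.1 among others. Same-numbered libraries did not deviate together from their group means (correlations -0.012, -0.035 and -0.036). HS4d replicate 3 stood apart in its group, which could hide a weak pairing.

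Without gene names, 2 members are named: that with the highest mean VM CPM, and that with the highest minimum VM CPM among members without HS4d counts. The members and lists were chosen with earlier results of these data known. The marker list was not used.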

Additional observations from a re-analysis of the deposited data

How the results depend on the processing

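The count of members called lower stayed at 200 under another scaling, filter or tool, where 6.15% (no filter) to 34.3% (VST values) of all genes were called lower. It was 134 to 200 when 1 library was left out, with 1.90% to 37.5% of all genes. With the replicate block, 148 members and 2.37% of all genes were called lower. No pairing of the libraries by replicate number was seen, though a weak one could have been missed. The median log2 fold change was -4.96 on the VST values, which also lack HS4d replicate 3, and -7.71 to -5.99 in the other fits. The 2 named members were called lower in each of 14 alternatives. The list kept 139 to 198 of its 200 members under other scalings, floors and ratios or without 1 library, 195 when genes among the 100 highest of any VM library were left out (added after seeing the data), and 101 when HS4d replicate 3 alone was the heated library. The first 100 genes held 0.00141% of the counts in HS4d and 0.634% in VM, and the first 400 held 0.0326% and 2.94%. The members' spread in HS4d was 1.59 on the TMM scale, 1.52 with a prior count of 0.25 and 0.715 with a prior count of 3. It was 0.553 to 1.32 without 1 HS4d replicate. In VM it was 0.146 over members with a count in every library and 0.122 to 0.144 without 1 VM replicate. Leaving out replicates for shares and spreads was added after seeing the data, and the cause of these shifts was not tested. Depth limits the 22 members with 3 or fewer counts over HS4d.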

Other observations

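All 200 members had a row in the deposited VST table, whose lowest value is 3.04. Their median VST value was 4.28 and 4.51 in HS4d replicates 1 and 2, against 9.29, 9.31 and 9.49 in VM replicates 1, 2 and 3. The lowest VST value was held by 28 and 8 members in HS4d replicates 1 and 2, as many as had 0 counts there, and by 0 members in each VM library. These values come from the same libraries and are no second measurement.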
